A study of Mus musculus with 64 samples.

Results

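Opposite-strand lncRNAs are long noncoding RNAs named after the gene they face, with the ending os, and 41 of them were followed here together with their sense genes. They were chosen from the 3787 transcripts of the deposited lncRNA table by name and abundance. Their symbol had to end in os, with or without a number, and their mean over the 64 libraries had to be 1 count or more. Of the 103 transcripts with such a symbol, 41 met the minimum, and 24 of these had a mean of 5 counts or more. Just inside the minimum lay Sap30bpos, with a mean of 1.06 counts, and B9d1os, with 1.11 counts. Just outside lay Plxna4os1 and Sox6os, each with 0.92 counts. For 38 of the 41, the gene named in the symbol was in the deposited gene table, as 37 distinct genes, because Arhgap27os2 and Arhgap27os3 share Arhgap27. Saxo1os, Banf2os and Proscos had no gene of that symbol in the gene table. Prosc is an older symbol of Plpbp, which is in the table and which Proscos overlaps on the opposite strand, with r = 0.183 within groups.

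The libraries were made from total RNA of mouse heart after depletion of ribosomal RNA. All mice were C57BL/6J. TG mice carried the cTnT-delta160E transgene, a mutant form of cardiac troponin T that models hypertrophic cardiomyopathy, and nTG mice did not. Trained mice ran high-intensity intervals on a treadmill on 3 days per week for 6 weeks, in sessions of 31 minutes each with 4 fast intervals (85% of the mean speed reached in a graded test) and 4 slow ones (50%), and sedentary mice did not. The groups held 7 sedentary nTG males, 9 sedentary TG males, 8 trained nTG males, 8 trained TG males, 8 sedentary nTG females, 8 sedentary TG females, 10 trained nTG females and 6 trained TG females. The labels give neither the promoter of the transgene nor the age of the mice, and the labels' extraction note states another range of group sizes than these counts.

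Many mammalian promoters start transcription in both directions, and a stable RNA made on the strand opposite to a gene can be annotated as an antisense or divergent lncRNA. Such a transcript may begin next to the start of the gene and run away from it, begin inside the gene and run back over its start, or lie deep inside the gene body. Members of this class can share a promoter with their gene, alter its transcription or chromatin, or be by-products of its activity, so whether a lncRNA and its gene vary together is the usual first question asked of such pairs.

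The files need 1 warning before any value. The column names of the gene table and of the lncRNA table did not describe the same order of libraries. Compared over the 389 autosomal transcripts used for matching, each lncRNA column resembled 1 gene column far more than any other, with Pearson's r from 0.598 to 0.863 against at most 0.404 for the next best, and all 64 best matches were mutual. A shared name was found for only 1 of the 64 matches, and columns of equal name had a median r of -0.015. By name, 45 gene columns went against the labelled sex or genotype, whereas after matching, here called joined columns, none did. Tnnt2, the gene of cardiac troponin T, whose reads include those of the transgene, was at 2665 to 3428 CPM in 33 libraries and at 6903 to 12000 CPM in 31. The joined gene totals ranged from 34.57 to 67.07, counted in units of 1000000, and the lncRNA totals were 191253 to 409437 counts, of which 1 transcript, Gm42418, took 50.85% to 76.61% and the 41 members together 0.665% to 1.726%. All 6 cardiomyocyte markers were in the gene table, and their summed level was 93200 to 127000 CPM.

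The members differed widely in abundance. Their means ranged from 1.06 to 1133 counts per library, 24 of the 41 stayed below 10 counts, and the 4 most abundant (Saxo1os, Brip1os, Atcayos and Zbtb11os1) held 78.5% of all member counts. Levels are given as CPM, counts per 1000000 of the scaled total of the joined gene column, so that they are not set by the lncRNA total. Saxo1os was at 23.4 CPM ± 1.51 (SD, n = 64), and Brip1os, which starts beside the DNA repair helicase gene Brip1, at 12 CPM ± 0.901 (SD, n = 64). Atcayos followed with 7.11 CPM ± 1.37 (SD, n = 64), Zbtb11os1 with 6.15 CPM ± 0.822, Foxo6os with 2.50 CPM ± 0.62, Cep83os with 2.43 CPM ± 0.361, H3f3aos with 1.62 CPM ± 0.406 and Proscos with 0.783 CPM ± 0.226. In this order the ranges over libraries of Saxo1os and Brip1os did not overlap, 19.5 to 27.1 CPM against 10.0 to 14.2 CPM, while those of Atcayos and Zbtb11os1 did, and so did those of Foxo6os and Cep83os. In 20 members each of the 64 libraries had at least 1 count, whereas Sap30bpos had none in 35 libraries and B9d1os none in 32.

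Per kilobase of exon, the sense gene was more abundant than its lncRNA in 34 of the 38 pairs, with a median ratio of 56.7. Here the sense gene was counted in the gene table and the lncRNA in the lncRNA table. The ratio reached 4460 for Jun, the AP-1 transcription factor gene, over Junos. For 25 pairs the gene table also holds the lncRNA, and with both from that table the sense gene was higher in 21, as it was for the same 25 pairs with the lncRNA table. The median ratio over these 25 pairs was 7.97 with both from the gene table and 40.8 with the lncRNA table, and that of Jun over Junos was 601. The 4 exceptions were Brip1os, Zbtb11os1, Notumos and Atcayos. Brip1os had 1.85 CPM per kilobase and Brip1 0.172 CPM per kilobase, a ratio of 0.0928. The span of Brip1os also overlaps Ints2 and Med13 on the opposite strand, with means of 361.4 and 5134.6 counts. Whether reads of these genes were counted for Brip1os was not tested. Zbtb11os1 had 4.56 CPM per kilobase against 1.93 for Zbtb11, which encodes a zinc finger protein. Notumos had 0.197 CPM per kilobase against 0.142 for Notum, the gene of a secreted enzyme that inactivates Wnt proteins, and Atcayos 1.63 CPM per kilobase against 1.19 for Atcay, the gene of the neuronal protein caytaxin. The counting's strand setting is not given in the sources used here, so where exons overlap, reads of a gene and its opposite-strand transcript cannot be told apart.

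In the GENCODE M21 annotation of build GRCm38, 40 members had their named gene, and all 40 lay on the strand opposite to it. Of these, 12 were divergent with bodies apart, their start 39 to 430 bases upstream of the start of the sense gene in all but Foxo6os, which starts 4001 bases upstream. A further 13 ran head to head and overlapped, starting inside the sense gene within 2000 bases of its start, and 15 started further inside the gene or past its end. Exon bases were shared with the sense gene in 25 of the 41. RefSeq's promoter table, which lists 250 bases before and 50 bases after each start on GRCm38.p6, held a window for 23 of the 41. Only the first listed window of each gene was used, and a chromosome was left out. The median GC content of the member windows was 62.7%, against 52.7% over the 27025 windows kept, and the median number of CG steps was 20 against 7. It was 30 CG steps in the 7 divergent members with a window, 24 in the 9 head-to-head members and 8 in the 7 others. Searched on both strands, TATAAA occurred in 8.70% of member windows and in 14.2% of all windows, CCAAT in 34.8% and 37.9%, and GGGCGG in 56.5% and 35.9%. These are descriptions of letters, with no test.

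The divergent layout is shown by the starts of Saxo1os and Cep83os, because a single short interval lies upstream of both transcripts of each pair. Capitals mark the bases between the annotated start of the sense gene and that of the lncRNA, and the lower-case letters after them are the first bases of the lncRNA. The Saxo1os stretch is chr4:86558329-86558493 on the plus strand of GRCm38.p6 (117 bases in capitals), and it holds no CG step. The Cep83os stretch is chr10:94688564-94688653 on the minus strand (77 bases in capitals), and it holds 13 CG steps in 90 bases. Cep83 encodes a centriole protein, and Saxo1 a microtubule-associated protein.
Saxo1os: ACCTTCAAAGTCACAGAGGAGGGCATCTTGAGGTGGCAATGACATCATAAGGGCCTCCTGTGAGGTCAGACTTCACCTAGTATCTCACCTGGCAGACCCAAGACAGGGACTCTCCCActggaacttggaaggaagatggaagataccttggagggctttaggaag
Cep83os: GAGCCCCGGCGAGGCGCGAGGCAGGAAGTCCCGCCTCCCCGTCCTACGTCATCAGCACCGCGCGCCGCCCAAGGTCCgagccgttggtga
The intervals thus differ in base composition although both pairs start within 118 bases of each other.

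Genotype was compared in the lncRNA table within each sex and training state and as the mean of these 4 differences, with edgeR's quasi-likelihood test and Benjamini-Hochberg adjustment over the 1108 transcripts that passed the filter on low counts. Of the 41 members, 23 passed it. In the mean of the 4 strata, Banf2os and Atcayos were lower and Arhgap27os2 was higher in TG hearts, 3 of 23 members, where 9.48% of all tested transcripts were called. The members' median log2 fold change was -0.06 and that of all transcripts 0.09. In single strata the only member called was Banf2os. It was called in sedentary males, beside 1.44% of all transcripts, in females that did not train, beside 0.271%, and in those that did, beside 2.89%. In trained males 2 of 23 members and 97 of 1108 transcripts had an unadjusted p under 0.05. No member was called there, beside 0.542% of all transcripts. These counts depend in part on the scaling of libraries: with totals of the joined gene columns 60 transcripts were called higher and 45 lower in the mean of the 4 strata, and with the lncRNA table's own totals 23 higher and 69 lower, but the directions of the 3 members were the same under both.

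**Figure D1:**
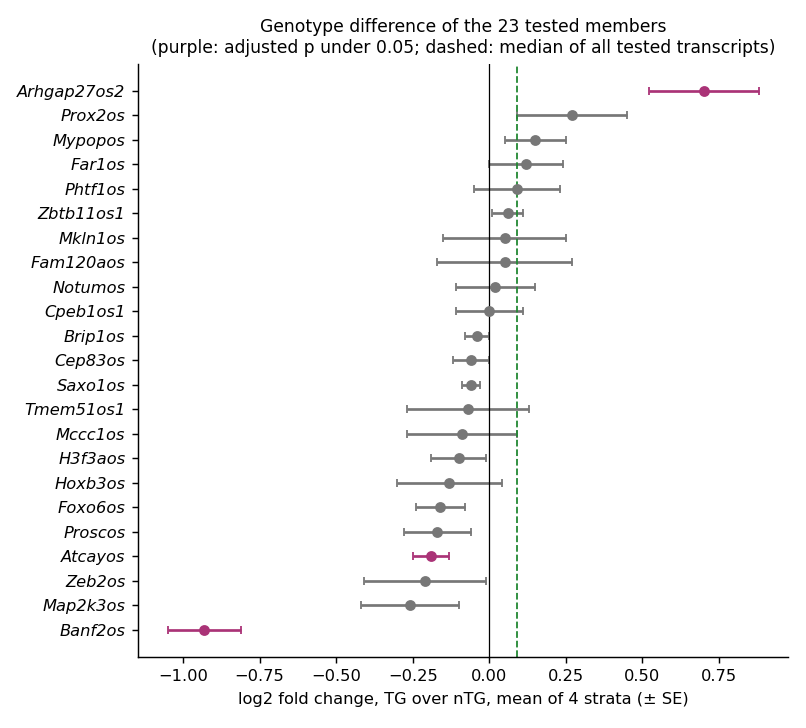
Log2 fold change of TG over nTG hearts, mean of 4 strata, for the 23 tested members (x axis), one member per line, with bars for the standard error. Purple points passed the adjusted threshold, and the dashed line is the median of all tested transcripts, 0.09. Banf2os lies lowest at -0.93 and Arhgap27os2 highest at 0.70.

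Banf2os was lower in TG than in nTG hearts, past the threshold in 3 of the 4 strata and in their mean. It is a transcript of chromosome 2 (chr2:144059138-144068806, minus strand, GRCm38) that lies wholly inside the annotated span of Banf2, the gene of a paralogue of the DNA-bridging barrier-to-autointegration factor, and shares no exon base with it. Its longer annotated form, Banf2os-201, has 771 bases in 2 exons. The first 300 bases are shown because this transcript had the strongest genotype difference among the members: exon 1, chr2:144068682-144068806, is in capitals, and the bases of exon 2, chr2:144059609-144059783, follow in lower case.
Banf2os: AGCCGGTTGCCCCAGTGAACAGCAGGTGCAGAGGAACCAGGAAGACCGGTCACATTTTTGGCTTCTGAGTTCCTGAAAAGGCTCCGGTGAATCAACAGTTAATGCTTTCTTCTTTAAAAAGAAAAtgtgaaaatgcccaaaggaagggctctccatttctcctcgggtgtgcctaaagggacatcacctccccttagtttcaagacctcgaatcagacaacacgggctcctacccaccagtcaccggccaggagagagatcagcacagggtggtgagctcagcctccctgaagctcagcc
In sedentary males the nTG libraries ranged from 0.446 to 0.960 CPM with a median of 0.739, and the TG libraries from 0.0986 to 0.522 CPM with a median of 0.382. In trained males they ranged from 0.445 to 1.27 CPM (median 0.667) in nTG and from 0.174 to 0.825 CPM (median 0.446) in TG. In sedentary females the nTG range was 0.519 to 1.51 CPM (median 0.878) and the TG range 0.194 to 0.617 CPM (median 0.479). In trained females the nTG range was 0.485 to 1.13 CPM (median 0.895) and the TG range 0.163 to 0.679 CPM (median 0.539). The groups overlapped in each stratum, but TG libraries lay below the nTG median in 9 of 9 sedentary and 7 of 8 trained males and in 8 of 8 sedentary and 6 of 6 trained females, and 7, 4, 6 and 2 of them, in the same order, lay below each nTG library.
In males the log2 fold change was -1.05 ± 0.25 (SE, edgeR adjusted p = 0.0145) without training and -0.66 ± 0.25 (adjusted p = 0.265) with it. In females it was -1.06 ± 0.24 (adjusted p = 0.02) without training and -0.96 ± 0.25 (adjusted p = 0.0236) with it. The mean of the 4 strata was -0.93 ± 0.12 (edgeR adjusted p = 1.68e-08), with a 95% interval of -1.17 to -0.69. Leaving out single libraries kept that mean between -0.98 and -0.89 and always past the threshold, whereas the calls within strata were closer to it. In sedentary males, 1 of the 64 omissions ended the call (without TG sedentary male replicate 5, adjusted p = 0.0525). In sedentary females 5 omissions ended it, those of nTG replicates 3 (-0.91, adjusted p = 0.151) and 6 and of TG replicates 4, 5 and 8. In trained females 3 ended it, those of nTG replicate 8 and of TG replicates 2 and 6 (-0.79 without the last, adjusted p = 0.111). The call in trained females was also lost with the replicate number as a block and with sizes taken from the gene column of equal name (-0.85 in both, edgeR adjusted p = 0.0544 and 0.0768). The genotype effect of Banf2os did not pass the threshold for a difference between trained and sedentary mice, by 0.39 ± 0.35 in males and 0.10 ± 0.35 in females, nor between the sexes, by -0.15 ± 0.25 (edgeR adjusted p of at least 0.975). The gene table has a row of its own for Banf2os, from the same libraries. Its joined columns gave -1.40 ± 0.23 and -0.84 ± 0.22 in sedentary and trained males and -0.92 ± 0.22 and -0.94 ± 0.23 in sedentary and trained females, each past the threshold (edgeR adjusted p of 0.00608 or less).

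Marker genes of other cell types were summed in the same libraries, and neither their difference between genotypes nor their part in the Banf2os difference was tested. Except for Myl1, the ranges of nTG and TG libraries overlapped. The 4 atrial markers summed to 20.2 to 601 CPM (median 86.2) in nTG and 35.2 to 682 CPM (median 151) in TG libraries. The 4 fibroblast markers summed to medians of 367 and 476 CPM, the 3 macrophage markers to 69.2 and 88.0 CPM and the 3 endothelial markers to 813 and 775 CPM, in nTG and TG. The 5 blood markers summed to 403 to 1110 CPM (median 672) in nTG and 260 to 4600 CPM (median 422) in TG libraries. Of 5 skeletal muscle markers only Myl1 was in the gene table, at 5.42 to 22.7 CPM in nTG and 25 to 83.7 CPM in TG libraries, which did not overlap. In whole-tissue RNA, fewer cells of a type and less RNA per cell cannot be told apart.

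**Figure D2:**
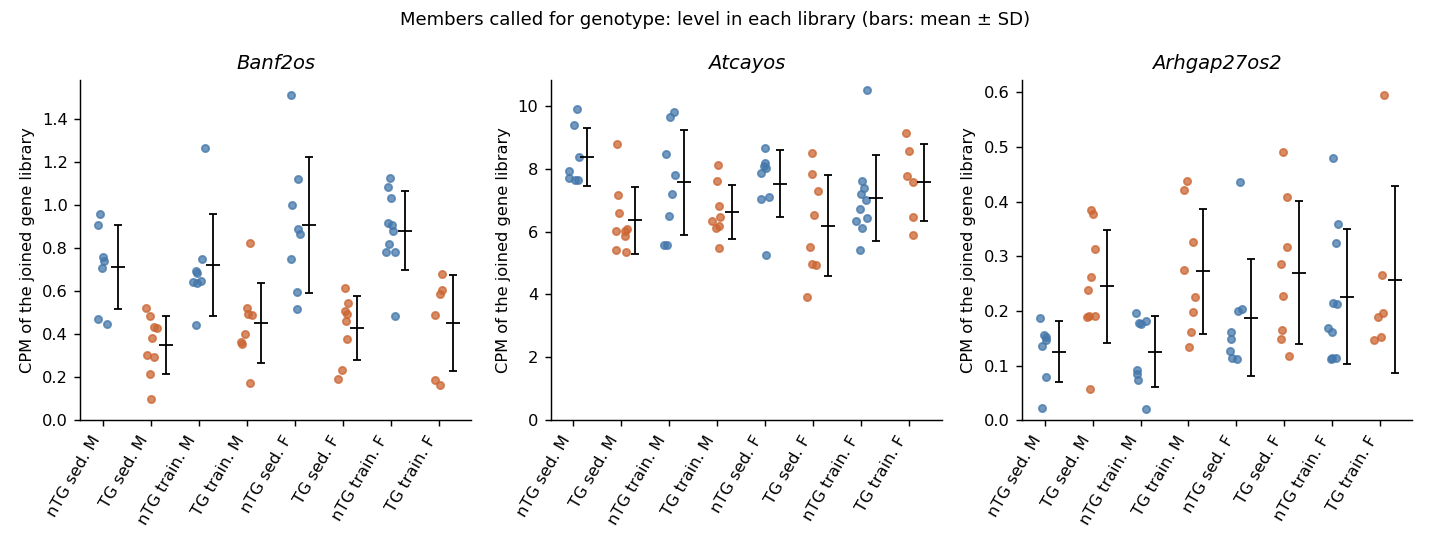
Level of the 3 members called for genotype in each library, in CPM of the joined gene library (y axis), by group (x axis; sed. sedentary, train. trained, M male, F female). Blue points are nTG and orange points TG libraries, and bars are the mean ± SD. Banf2os is lower in TG in each stratum with overlapping ranges, and Atcayos shows no lower TG level in trained females.

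Arhgap27os2 was higher in TG hearts, at a low level. It lies inside Arhgap27 at chr11:103355701-103361092 on the plus strand, and 1055 of its 1390 bases are also exon bases of Arhgap27 on the other strand. Exon 1, chr11:103355701-103355861, is outside the exons of Arhgap27 and is shown in lower case, and a stretch of exon 2 that is also coding sequence of Arhgap27, chr11:103360172-103360321, is shown in capitals, because reads from the second cannot be assigned to 1 of the 2 genes without strand.
Arhgap27os2 exon 1: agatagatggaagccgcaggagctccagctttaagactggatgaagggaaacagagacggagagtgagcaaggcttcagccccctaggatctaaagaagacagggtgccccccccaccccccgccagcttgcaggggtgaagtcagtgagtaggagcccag
Arhgap27os2 exon 2, shared: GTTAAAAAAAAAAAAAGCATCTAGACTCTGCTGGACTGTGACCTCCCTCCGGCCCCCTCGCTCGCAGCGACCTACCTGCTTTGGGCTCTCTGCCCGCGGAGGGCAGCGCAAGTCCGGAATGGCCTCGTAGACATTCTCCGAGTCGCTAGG
In sedentary males the nTG libraries ranged from 0.0235 to 0.188 CPM (median 0.148) and the TG libraries from 0.0578 to 0.384 CPM (median 0.238). In trained males the ranges were 0.0206 to 0.197 CPM (median 0.135) and 0.134 to 0.437 CPM (median 0.251). In sedentary females they were 0.112 to 0.436 CPM (median 0.156) and 0.118 to 0.491 CPM (median 0.257), and in trained females 0.112 to 0.479 CPM (median 0.191) and 0.147 to 0.594 CPM (median 0.193). TG libraries lay above each nTG library in 8 of 9 sedentary males and 6 of 8 trained males, but in 1 of 8 sedentary and 1 of 6 trained females. In males the log2 fold change was 0.97 ± 0.38 without training (edgeR adjusted p = 0.248) and 1.10 ± 0.37 with it (adjusted p = 0.22). In females it was 0.52 ± 0.35 without training (adjusted p = 0.951) and 0.21 ± 0.36 with it (adjusted p = 0.79). None passed the threshold, and their mean was 0.70 ± 0.18 (adjusted p = 0.0066). The difference of the genotype effect between the sexes was -0.68 ± 0.36 (adjusted p = 0.86). Its row in the gene table, with a mean of 14.9 counts, gave 0.33 ± 0.25 (edgeR adjusted p = 0.315) in the joined columns over the 4 strata, which did not pass the threshold, with -0.03 ± 0.50 in sedentary males and -0.15 ± 0.51 in trained females. Trained males and sedentary females, averaged together, therefore lay above 0.33 in that row. Arhgap27 itself was at 23.5 to 29.9 CPM in nTG and 29.9 to 33.4 CPM in TG sedentary males, 0.18 ± 0.07 on the log2 scale (adjusted p = 0.043), and its mean over the 4 strata was 0.04 ± 0.03 (adjusted p = 0.346).

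Atcayos was slightly lower in TG hearts. In sedentary males the nTG libraries ranged from 7.64 to 9.89 CPM (median 7.93) and the TG libraries from 5.37 to 8.78 CPM (median 6.02), and 8 of 9 TG libraries lay below each nTG library. In trained males the ranges were 5.56 to 9.79 CPM (median 7.49) and 5.47 to 8.13 CPM (median 6.4). In sedentary females they were 5.25 to 8.66 CPM (median 7.95) and 3.92 to 8.50 CPM (median 6.02), and in trained females 5.40 to 10.5 CPM (median 6.87) and 5.89 to 9.13 CPM (median 7.67), where the TG median was the higher. The log2 fold change was -0.40 ± 0.12 in sedentary males (edgeR adjusted p = 0.0812) and -0.19 ± 0.12 in trained males. It was -0.28 ± 0.12 in sedentary females and 0.10 ± 0.12 in trained females, none of the 4 past the threshold, and the mean was -0.19 ± 0.06 (adjusted p = 0.0306). This call was close to the threshold, since 5 of 64 omissions of 1 library ended it, with adjusted p of 0.0503 to 0.0512. Those libraries were nTG trained male replicates 4 and 8, nTG trained female replicate 9, TG sedentary female replicate 1 and TG trained female replicate 3. Trained females were also the stratum in which lncRNA counts as a whole were highest in TG: outside Gm42418 they were 1628 to 1976 per 1000000 gene counts in nTG (median 1773) and 1799 to 2212 in TG (median 2037), and the median transcript was higher by 0.22 on the log2 scale. With the lncRNA table's own totals as scale, the mean fold change of Atcayos was -0.27 (edgeR adjusted p = 0.000144). On that scale Atcayos was also called in sedentary males (-0.44, edgeR adjusted p = 0.0105). With sizes taken from the gene column of equal name, the call in the mean of the 4 strata was lost. Atcay, the sense gene of Atcayos, was at -0.04 ± 0.08 (edgeR adjusted p = 0.7) in the mean of the 4 strata in the joined columns. Its mean levels in nTG and TG were 5.62 and 4.86 CPM in sedentary males and 4.66 and 4.7 CPM in trained males. In sedentary females they were 4.93 and 4.13 CPM, and in trained females 4.23 and 5.16 CPM.

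Of the other 20 tested members, none was called for genotype in the 5 contrasts at the reported scaling. Saxo1os had group medians of 22.1 to 24.7 CPM, Brip1os of 11.3 to 12.6 CPM and Zbtb11os1 of 5.77 to 7.08 CPM. Their mean genotype differences were -0.06 ± 0.03, -0.04 ± 0.04 and 0.06 ± 0.05 on the log2 scale, with 95% intervals of -0.12 to 0.00, -0.12 to 0.03 and -0.04 to 0.16. With the lncRNA table's own TMM totals as scale, Saxo1os was at -0.14 and was called (edgeR adjusted p = 0.0299). Foxo6os, upstream of the forkhead factor gene Foxo6, was at -0.16 ± 0.08 (edgeR adjusted p = 0.185), and at -0.25 with the table's own totals, where it was called (adjusted p = 0.0315). Zeb2os, opposite the transcription factor gene Zeb2, was at -0.21 ± 0.20 (adjusted p = 0.572). Kcnd3os, which starts inside the potassium channel gene Kcnd3, had no count in 21 libraries and did not pass the filter. The 18 members that did not pass were compared only in a fit without the filter. There Sap30bpos, which starts inside Sap30bp, was the only one of them called for genotype, in sedentary males (edgeR adjusted p = 0.0151) and in the mean of the 4 strata (adjusted p = 0.0223). That fit called 19 of all 3778 transcripts in sedentary males and 95 of 3778 in the mean. It had no count in the 9 TG sedentary males and 0.0157 to 0.106 CPM (median 0.0569) in the 7 nTG ones, while the ranges overlapped in the other 3 strata. Its row in the gene table gave -0.01 ± 0.23 in sedentary males (joined columns, edgeR adjusted p = 0.987).

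Training changed no member past the threshold: 0 of 23 in the mean of the 4 strata with edgeR, where 0.0% of all transcripts were called and 1 member, Mypopos, had an unadjusted p under 0.05 (-0.21 ± 0.10), and 0 of 23 with DESeq2. Within nTG males, TG males, nTG females and TG females the count was also 0, beside 0.0%, 0.271%, 0.0% and 0.0% of all transcripts, with 0, 2, 2 and 3 members at an unadjusted p under 0.05. Of all 1108 transcripts, 37, 82, 127 and 50 had such a p in the same order, and 58 in the mean of the 4 strata. For Banf2os the training difference was 0.10 ± 0.12 on the log2 scale over the 4 strata, and for Saxo1os 0.15 ± 0.06 in TG males (edgeR adjusted p = 0.467). Between the sexes no member was called, beside 1.99% of all transcripts, and Map2k3os, divergent from the kinase gene Map2k3, had the only unadjusted p under 0.05 (-0.43 ± 0.16, female over male, adjusted p = 0.204). Among all 1108 transcripts, 128 had such a p for sex. The 3 interaction contrasts gave 0 of 23 members and 0.0% of all transcripts each, with 1, 3 and 2 members at an unadjusted p under 0.05, beside 56, 87 and 60 of 1108 transcripts.

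The 37 sense genes gave different answers by column name and after joining. By name, none was called for genotype, beside 0.0% of all 16913 genes in each of the 5 genotype contrasts, and none was called for training in nTG males, beside 0.78%, or nTG females, beside 0.248%. By name, 8 were called for training in the mean of the 4 strata, beside 16.9% of all genes: Cpeb1, Zeb2, Brip1, Tmem51 and Pard3b higher, and Tmem147, Myadml2 and Hopx lower in columns labelled trained. Since 45 of the 64 gene columns went against the labelled sex or genotype by name, this contrast by name does not isolate training. In the joined columns 21 of 37 were called for genotype in the mean of the 4 strata, 14 higher and 7 lower in TG, beside 39% of all genes, and for training over the 4 strata only Hk1, the hexokinase gene (0.09 ± 0.02, edgeR adjusted p = 0.0244), beside 3.98%. The share among the sense genes was 56.8%, and whether it differs from the share of all genes was not tested. In single strata, 8 and 9 sense genes were called for genotype in sedentary and trained males, beside 20.6% and 14% of all genes, and 6 and 6 in sedentary and trained females, beside 4.37% and 14.8%. In TG males, training changed 8 sense genes in the joined columns, beside 18% of all genes, among them Notum at 0.72 ± 0.25 and Arhgap27 at -0.28 ± 0.07 on the log2 scale (edgeR adjusted p = 0.0366 and 0.00314). In nTG females 1 was called, Hk1, beside 0.148%. For sex 6 were called, beside 16.6%.

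Among the sense genes called for genotype in the joined columns, some faced a lncRNA that was tested and not called, and others a lncRNA that did not pass the filter on low counts. Hopx, the gene of a homeodomain-only protein active in heart muscle, was at 70.3 to 95.8 CPM (median 85.6) in sedentary nTG males and at 50.1 to 73.0 CPM (median 56.9) in sedentary TG males in the joined columns. In sedentary females the nTG range of 72.1 to 85.2 CPM and the TG range of 56.2 to 63.8 CPM did not overlap. Its log2 fold change over the 4 strata was -0.41 ± 0.04 (edgeR adjusted p = 1.97e-12), while Hopxos, with 1.78 counts per library in the lncRNA table, did not pass the filter and was not called without it. Myadml2 was lower by -0.25 ± 0.02 (adjusted p = 8.55e-13), and Myadml2os likewise did not pass the filter. Cpeb1, the gene of an RNA-binding regulator of translation, was higher by 0.29 ± 0.04 (adjusted p = 1.07e-08), beside -0.00 ± 0.11 for Cpeb1os1. Brip1 was higher by 0.41 ± 0.10 (adjusted p = 0.000338), beside -0.04 ± 0.04 for Brip1os, although their starts are 177 bases apart. Tmem51 was higher by 0.39 ± 0.05 (adjusted p = 9.79e-09), beside -0.07 ± 0.20 for Tmem51os1. Lrp8, a lipoprotein receptor gene, was higher by 0.70 ± 0.16 (adjusted p = 0.000333), and Lrp8os3 did not pass the filter. In the mean of the 4 strata, Atcayos and Arhgap27os2 were called and their genes were not. The difference between a lncRNA's and its gene's fold change was not itself tested.

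Whether a lncRNA followed its sense gene from heart to heart was asked within groups, so that genotype, training and sex could not create the relation. For each pair, log2 CPM was centred on the group mean over the 64 libraries with the joined columns, and the p-value came from 100000 permutations within groups, adjusted over 1732 pairs of a lncRNA with its sense or nearest gene. The median r of the 38 pairs was 0.01, with 23 above 0, and that of all 1732 pairs was 0.054. The adjusted threshold was passed by 2 pairs, beside 2.54% of all pairs. The 11 divergent pairs had a median r of 0.009 (from -0.245 to 0.405), the 13 head-to-head pairs 0.006 (from -0.408 to 0.231) and the 14 others 0.107 (from -0.105 to 0.688). In the same order, the median of the lncRNAs' mean counts was 6.5, 4.33 and 9.51. At such low counts an r near 0 cannot show that a lncRNA varies apart from its gene. The 25 pairs that share exon bases had a median r of 0.021 and the 13 without 0.001. With gene columns by name no pair passed.

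**Figure D3:**
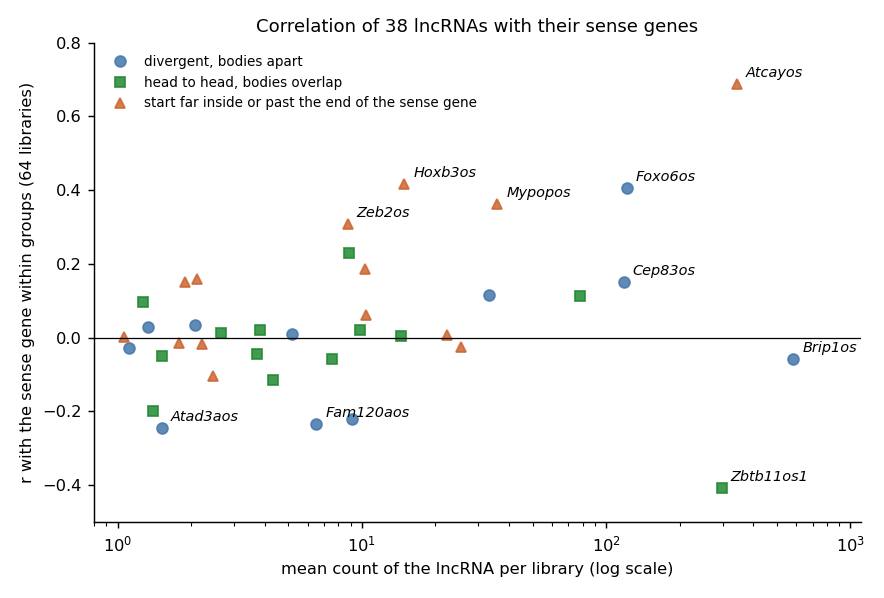
Pearson's r between each lncRNA and its sense gene within groups over 64 libraries (y axis) against the mean count of the lncRNA per library (x axis, log scale), for 38 pairs. Symbols give the layout of the pair. Most pairs lie near 0, Atcayos stands highest at 0.688 and Zbtb11os1 lowest at -0.408.

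Atcayos and Atcay varied together most. Pearson's r was 0.688 and Spearman's rho 0.653 over 64 libraries, each with a permutation p of 1e-05, the smallest these permutations can give (adjusted p = 0.00173 for r). Without the 2 libraries farthest from the median Atcayos level r was 0.681, and pooled over groups 0.693. Of 16912 genes Atcay ranked second for Atcayos, after Gm10435 (r = 0.746), and none of the 5 other genes within 30 kb had an r above 0.138, among them Nmrk2, which Atcayos also overlaps (0.039). Both Atcayos and Atcay also followed the share of lncRNA counts in the library, with r of 0.594 and 0.489, and the part of that share in the relation was not tested apart from rescaling. With Atcayos scaled to the lncRNA table's own totals, r was 0.556 (permutation adjusted p = 0.00533). The pair shares 432 exon bases. One coding block of Atcay inside Atcayos is shown with 50 bases on each side, chr10:81210474-81210672 on the plus strand of GRCm38. The 99 bases that are coding sequence of Atcay on the other strand are in capitals, since reads from them could be counted for either gene.
Atcayos: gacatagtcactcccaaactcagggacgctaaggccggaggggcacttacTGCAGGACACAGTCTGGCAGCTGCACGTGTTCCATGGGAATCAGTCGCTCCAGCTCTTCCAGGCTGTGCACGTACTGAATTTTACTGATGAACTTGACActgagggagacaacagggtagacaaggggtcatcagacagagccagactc
The row of Atcayos in the gene table held 4.41 times as many counts as its row in the lncRNA table, and its r with Atcay was 0.652.

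Hoxb3os and Hoxb3, a homeobox gene of body patterning, had r = 0.416 and rho = 0.412 (permutation p = 0.00094 and 0.00123, adjusted p = 0.0407 and 0.0576). Hoxb3os ranged from 0.0211 to 0.662 CPM over the libraries, and Hoxb3 was at 1.25 CPM ± 0.482 (SD, n = 64). Without the 2 farthest libraries r was 0.483, and scaled to the lncRNA table's own totals 0.405 (adjusted p = 0.0557), so the call depended on scaling and on the measure. Hoxb3 ranked 45 of 16913 genes by r with Hoxb3os. The neighbours Hoxb4 and Hoxb2, also homeobox genes, had r of 0.323 and 0.187 with Hoxb3os. Of the 4201 exon bases of Hoxb3os, 2250 are also exon of Hoxb3. A stretch of 150 of them that is coding sequence of Hoxb3, chr11:96346247-96346396, is given on the minus strand, as Hoxb3os carries it.
Hoxb3os: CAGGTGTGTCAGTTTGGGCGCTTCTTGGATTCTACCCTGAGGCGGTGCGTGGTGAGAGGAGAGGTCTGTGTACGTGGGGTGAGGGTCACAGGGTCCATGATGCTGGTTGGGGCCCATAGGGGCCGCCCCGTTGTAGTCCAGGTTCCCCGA

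No other pair of a member and its sense gene passed the threshold within groups at the reported scaling. Foxo6os and Foxo6 had r = 0.405 and rho = 0.407 (permutation p = 0.0019 and 0.00194, adjusted p = 0.0658 and 0.0758), and r without 2 libraries was 0.336. Mypopos and Mypop had r = 0.362 and rho = 0.337 (permutation p = 0.00384 and 0.0104, adjusted p = 0.109 and 0.196). With Mypopos on the lncRNA table's own totals, r was 0.419 and the pair was called (permutation adjusted p = 0.0419). The row of Mypopos in the gene table had r = 0.119 with Mypop. Zeb2os and Zeb2 had r = 0.307 (permutation adjusted p = 0.297), Mkln1os and Mkln1 0.231 (0.589 by the same test), and Kcnd3os and Kcnd3 0.012. At the other end, Zbtb11os1 and Zbtb11 had r = -0.408 and rho = -0.381 (permutation p = 0.00188 and 0.00355, adjusted p = 0.0658 and 0.109), with r = -0.331 without 2 libraries and -0.290 with the lncRNA table's own totals. Atad3aos and Fam120aos had r of -0.245 and -0.234 with their genes (permutation adjusted p = 0.473 and 0.474). By r with Zbtb11os1, Zbtb11 ranked 16118 of 16912 genes, so other genes had a lower r. Zbtb11os1 runs back over the start of Zbtb11 and shares 489 exon bases with it. The 200 bases shown, chr16:55974272-55974471 on the minus strand, cross the end of a coding exon of Zbtb11, and capitals mark the bases that are coding sequence of Zbtb11 on the other strand. This pair is shown because it shares exon bases, as the pairs of Atcayos and Hoxb3os do, but had a negative r.
Zbtb11os1: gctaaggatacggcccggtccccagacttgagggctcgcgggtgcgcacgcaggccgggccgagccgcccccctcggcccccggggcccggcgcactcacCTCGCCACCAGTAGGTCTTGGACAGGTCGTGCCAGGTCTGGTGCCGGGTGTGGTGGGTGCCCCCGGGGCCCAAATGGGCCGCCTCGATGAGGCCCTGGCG
Brip1os, in the lncRNA table the most abundant member with a measured partner, had r = -0.057 with Brip1 (permutation adjusted p = 0.933), and Cep83os had 0.151 with Cep83 (adjusted p = 0.71).

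Saxo1os, the most abundant member, has no sense gene in the gene table but was closer to 1 other gene than any other member was to its best-correlated gene. Of 16913 genes the one most correlated with it was Rraga, which encodes a RagA GTPase of the mTORC1 nutrient pathway and lies 15863 bases downstream on the same strand (chr4:86575668-86577285). Rraga was singled out after the values were seen. Pearson's r within groups was 0.833 and Spearman's rho 0.844 over 64 libraries. The next gene reached 0.616. No p-value is given, because the gene was chosen for its r. Within the 8 groups r ranged from 0.71 in sedentary nTG females to 0.972 in trained nTG males, without 2 libraries it was 0.806, with Saxo1os on the lncRNA table's own totals 0.607, and with gene columns by name -0.029. Saxo1os had group medians of 22.1 to 24.7 CPM and Rraga of 24.7 to 27.6 CPM. Per library, Saxo1os averaged 1133 counts and Rraga 1266. The other gene within 30 kb, Haus6 on the opposite strand, had r = 0.164.

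**Figure D4:**
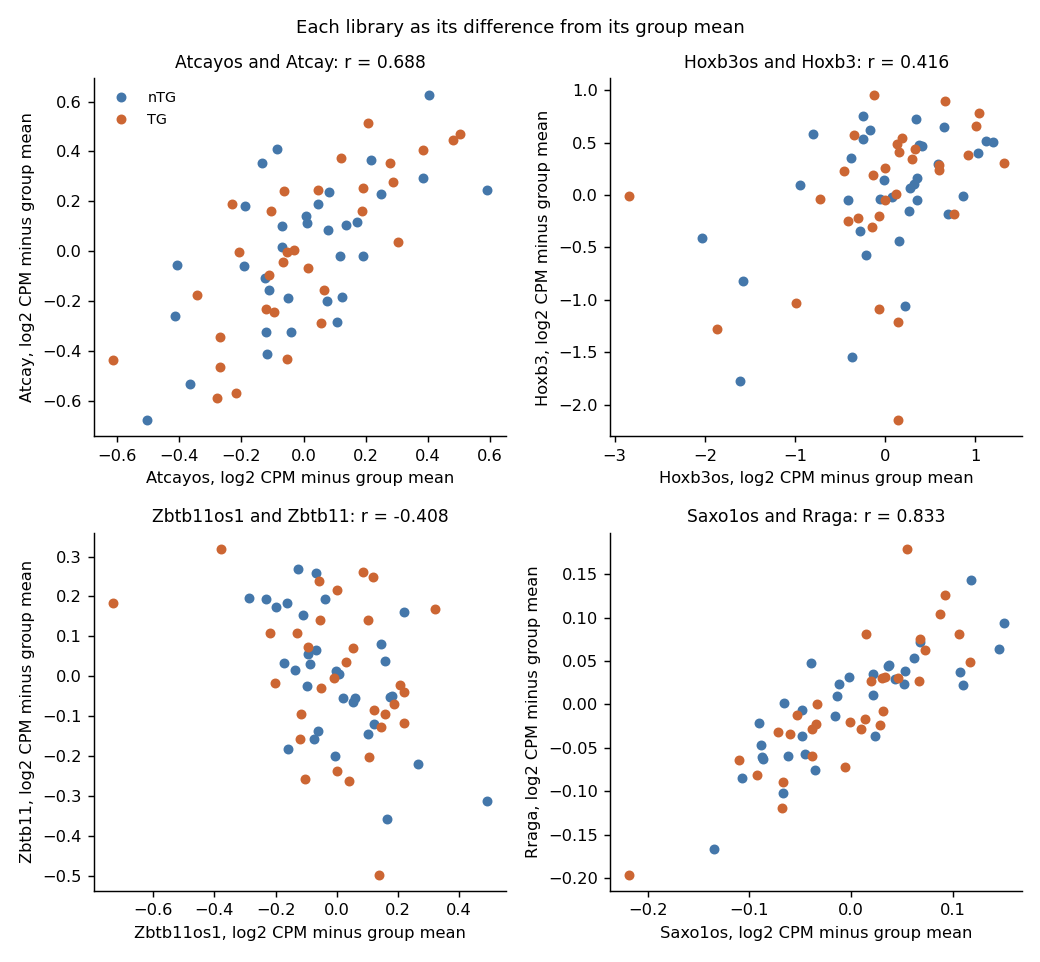
Each of 64 libraries as its difference from its group mean in log2 CPM, lncRNA on the x axis and gene on the y axis, for 4 pairs. Blue points are nTG and orange points TG libraries. Saxo1os and Rraga (r = 0.833) and Atcayos and Atcay (r = 0.688) lie along a rising line, Hoxb3os and Hoxb3 scatter widely (0.416), and Zbtb11os1 and Zbtb11 fall (-0.408).

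For 27 members the gene table also holds a row of the lncRNA itself, so the same transcript can be compared between the tables in the joined columns. In 10 of them the values followed each other across libraries, with r from 0.801 to 0.939 and 1.12 to 1.56 times as many counts in the gene table. These included Brip1os, Zbtb11os1, Foxo6os, Banf2os and H3f3aos. In the other 17, r was 0.009 to 0.563, and 14 of them had at least 3 times as many counts in the gene table, up to 36.4 times for Tmem147os and 32.3 times for Hopxos. Arhgap27os2 had r = 0.375 at 1.43 times the counts, and Mypopos r = 0.201 at 1.66 times. In the gene table, Hopxos fell with genotype by -0.36 ± 0.12 on the log2 scale over the 4 strata (edgeR adjusted p = 0.0108), as its sense gene Hopx did, and Atcayos by -0.23 ± 0.05 (adjusted p = 5.11e-05). In that contrast 39% of all genes were called, and Hopxos was picked after its values were seen. Hopxos shares 412 exon bases with Hopx, and reads from them could be counted for either gene. In sedentary males the row of Atcayos in the gene table gave -0.17 ± 0.09, beside -0.40 ± 0.12 in the lncRNA table.

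**Figure D5:**
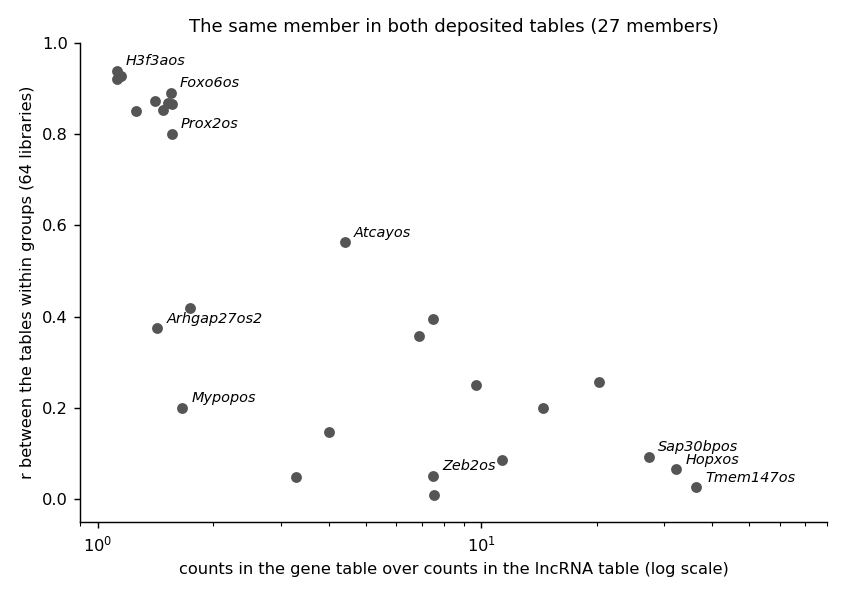
The 27 members that have a row in both deposited tables: r between the tables within groups over 64 libraries (y axis) against the ratio of their mean counts, gene table over lncRNA table (x axis, log scale). The 10 points at the upper left lie at r of 0.801 or more with ratios up to 1.56, and those with ratios of 3 or more lie at r of 0.563 or less.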

How the data were processed

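Heart RNA libraries of 64 mice were analysed from 2 tables that the authors deposited: raw counts per gene, named by Ensembl identifier, and estimated counts (expected counts) per lncRNA, named by symbol, of which 45 rows had fractional values and were rounded here. The submitters' processing notes name GRCm38 and mm10, cutadapt 2.3, FastQC 0.11.8, MultiQC 1.7, STAR 2.7.8a and RSEM 1.3.3. The roles of these tools, the annotation and the strand setting are not given in the sources used here.

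Members and gene lists were chosen with earlier results of these data known. Each lncRNA column was joined to its best-correlated gene column, over transcripts with a mean of at least 20 counts in both tables. lncRNA counts were tested with edgeR 4.0.16 (R 4.3.3, filterByExpr, glmQLFit and glmQLFTest), 1 model with a mean for each of 8 groups, with TMM-scaled totals of the joined gene column as library sizes. Adjusted p is Benjamini-Hochberg, with a threshold of 0.05. Sense genes were tested the same way in the gene table, by column name and joined. Correlations used log2 CPM with a pseudocount of 0.5. DESeq2 1.42.0 and the other alternatives are given in the closing section. The scripts were tested on simulated data.

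Named members were those called in a contrast, the 8 most abundant, the 6 highest and 3 lowest correlations, and members facing a listed transcription factor or muscle gene (Zeb2os, Kcnd3os). Other genes and members named in the text were chosen after their values were seen. Positions are from GENCODE M21, which named all 41 members and 16887 of 16913 genes, and windows from RefSeq. Replicates are separate mice, as far as the labels tell, and p-values measure only the spread between these samples. No 2 libraries of a group agreed within counting noise in a chi-square test of their lncRNA counts (0 of 229 pairs). All columns were mapped to a library.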

Additional observations from a re-analysis of the deposited data

Results flagged for a closer look

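Single libraries stood apart from the rest of their group in 7 of 56 sets of values, 7 members in 8 groups, where chance alone would flag about 1 in 20. In each the library was the highest of its group. In nTG trained male replicate 6 Banf2os reached 1.27 CPM, against 0.445 to 0.748 CPM in the 7 others. Atcayos was at 10.5 CPM in nTG trained female replicate 9, and at 5.40 to 7.60 CPM in the 9 others. Arhgap27os2 was at 0.436 CPM (21 counts) in nTG sedentary female replicate 4, against at most 0.204 CPM in the 7 others, and at 0.594 CPM (34 counts) in TG trained female replicate 3, against at most 0.265 CPM in the 5 others. Hoxb3os was at 0.492 CPM (25 counts) in TG trained male replicate 1, against at most 0.341 CPM. Foxo6os was at 3.61 CPM in TG sedentary male replicate 3, against at most 2.53 CPM, and at 3.56 CPM in nTG trained female replicate 2, against at most 2.71 CPM. Without nTG trained female replicate 9, the genotype call of Atcayos ended (adjusted p = 0.0506 with edgeR). The mean genotype difference of Arhgap27os2 stayed between 0.59 and 0.77 over all omissions of 1 library.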

How the results depend on the processing

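Genotype calls of members moved with the scaling. In sedentary males, 1 member was called, beside 16 of all 1108 transcripts. There 2 members were called (Atcayos in addition) with the lncRNA table's own TMM totals (28 of 1098 transcripts), TMM without Gm42418 (23 of 1101), DESeq2 size factors (18 of 1103), sizes of the same-named gene column (33 of 1125), the replicate block (19 of 1108) and only the groups compared (20 of 802). Without the filter on low counts 2 were called as well (Sap30bpos in addition), beside 19 of 3778 transcripts. In the mean of the 4 strata, 5 instead of 3 members were called with the table's own TMM totals and with TMM without Gm42418, beside 92 of 1098 and 92 of 1101 transcripts instead of 105 of 1108. Both add Saxo1os (-0.14 and -0.13) and Foxo6os (-0.25 and -0.24). In trained females, 1 member was called, beside 32 of 1108 transcripts. There 2 were called with TMM without Gm42418 (26 of 1101 transcripts) and with DESeq2 size factors (31 of 1103), and 0 with same-named sizes (7 of 1125) and with the replicate block (33 of 1108), where Banf2os was at -0.85 in both. With same-named sizes 3 members were called for sex, beside 125 of 1125 transcripts instead of 22 of 1108, and 1 for genotype by training in males, beside 28 of 1125 instead of 0 of 1108. Atcayos was no longer called for genotype in the mean of the 4 strata with these sizes (-0.24). Leaving out 1 library each gave 0 to 2 members in sedentary males, 0 to 1 in sedentary females, 0 to 1 in trained females and 2 to 3 in the mean of the 4 strata. The calls over all transcripts in those fits are not given here. For sense genes, joined columns gave 8, 9, 6, 6 and 21 genotype calls where names gave 0, 8 instead of 0 for training in TG males, 1 instead of 0 in nTG females, 1 instead of 8 over the 4 strata, and 6 instead of 0 for sex. With columns by name, DESeq2 called 2 sense genes for training in nTG males, beside 3.77% of all genes, and 10 over the 4 strata, beside 18.2%. With DESeq2 size factors edgeR called 9 over the 4 strata, beside 16.7%. Of the pairs of members, 2 were called, beside 44 of all 1732 pairs. By name 0 were called (0 of 1732), pooled without centring 4 (97 of 1732) and with Spearman's rho 1 (34 of 1732). With the lncRNA table's own TMM totals 2 were called (42 of 1732), with Mypopos in place of Hoxb3os. By name r was -0.181 for Mkln1os, -0.010 for Foxo6os, -0.134 for Hoxb3os, 0.063 for Zbtb11os1 and 0.057 for Fam120aos, each with the opposite sign. With the lncRNA row of the gene table, an alternative chosen after seeing the data, the median ratio of sense gene over lncRNA per kilobase was 7.97 instead of 40.8 over 25 pairs. A minimum of 5 counts left 24 members. Replicate numbers did not pair the libraries: same-numbered libraries of 2 groups correlated above 0.1 in 2 of 205 pairs. The cause of these changes was not tested. Low counts limit most members, since 24 of 41 average under 10 counts.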
